A study of Rattus norvegicus with 15 samples.

Results

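The genes described here are 10 genes of bile acid transport and farnesoid X receptor (FXR) signalling, namely Slc10a2, Fabp6, Slc51a, Slc51b, Abcc2, Abcc3, Nr1h4, Nr0b2, Fgf15 and Gpbar1. Of these, 9 were among the 13050 genes tested, and Fgf15 was not, since its probe was not above background. They were chosen by name, with results of these arrays in view, so their own values are a description and carry no p-value. Expression was measured in the intestine of 15 male rats, each on its own array, in 3 groups of 5. Wistar rats were the normal, nondiabetic group and had no operation. GK-Sham-PF rats were Goto-Kakizaki (GK) rats, a nonobese strain with inherited diabetes, that were sham-operated with an incision 16 cm from the ligament of Treitz and pair-fed. GK-S-30 rats were GK rats given a Roux-en-Y gastric bypass (RYGB) with a Roux limb (RL), the stretch of intestine joined to the stomach, of 30 cm. GK rats were operated on at 16 wk of age, and tissue was taken at 14 wk postoperation from the RL of GK-S-30 rats and from the corresponding intestinal segment of the other groups, whose Wistar rats were age-matched. The rats were fasted overnight. In rats without rearranged intestine the segment lay a short way beyond 16 cm from the ligament of Treitz, in the upper and not the distal small intestine. The GK groups are called sham rats (GK-Sham-PF) and RYGB rats (GK-S-30) in the following. RYGB and sham rats share the strain, and sham and Wistar rats differ in strain, operation and feeding at once.

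Bile acids are made from cholesterol in the liver, released into the gut with a meal and mostly recovered in the distal small intestine. There the sodium-dependent carrier encoded by Slc10a2 takes them up from the lumen, the cytosolic protein encoded by Fabp6 binds them, and the Slc51a and Slc51b products form the exporter into the blood. FXR, encoded by Nr1h4, is the nuclear receptor for bile acids, and Nr0b2 (small heterodimer partner, SHP) and Fgf15 are among its best-known target genes. Gpbar1 encodes a bile acid receptor of the cell surface, and Abcc2 and Abcc3 encode pumps for conjugated organic anions.

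To show the regulatory sequence upstream of the apical carrier, its binding protein, SHP and an exporter subunit, the 250 bases before the start are printed 5′ to 3′ on the gene's strand, from RefSeq's promoter table (build GRCr8), for Slc10a2 (chr16:91087839-91088088, plus strand), Fabp6 (chr10:28569728-28569977, minus strand), Nr0b2 (chr5:151062910-151063159, plus strand) and Slc51b (chr8:74835110-74835359, minus strand). Capitals mark matches to 1 of the 2 inverted repeats described after them.

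Slc10a2: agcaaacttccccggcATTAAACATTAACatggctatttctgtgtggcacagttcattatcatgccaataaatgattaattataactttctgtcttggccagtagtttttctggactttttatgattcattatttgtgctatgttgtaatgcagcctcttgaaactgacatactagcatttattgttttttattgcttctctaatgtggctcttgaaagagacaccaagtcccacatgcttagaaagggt
Fabp6: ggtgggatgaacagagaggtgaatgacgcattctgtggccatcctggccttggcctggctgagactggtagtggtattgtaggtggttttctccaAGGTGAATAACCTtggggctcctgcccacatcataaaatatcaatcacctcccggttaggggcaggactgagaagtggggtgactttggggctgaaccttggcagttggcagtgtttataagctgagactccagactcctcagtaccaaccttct
Nr0b2: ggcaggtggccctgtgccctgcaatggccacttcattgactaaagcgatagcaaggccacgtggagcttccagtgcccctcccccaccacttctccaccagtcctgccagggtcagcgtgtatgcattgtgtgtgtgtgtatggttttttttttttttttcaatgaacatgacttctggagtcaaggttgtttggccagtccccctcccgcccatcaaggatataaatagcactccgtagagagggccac
Slc51b: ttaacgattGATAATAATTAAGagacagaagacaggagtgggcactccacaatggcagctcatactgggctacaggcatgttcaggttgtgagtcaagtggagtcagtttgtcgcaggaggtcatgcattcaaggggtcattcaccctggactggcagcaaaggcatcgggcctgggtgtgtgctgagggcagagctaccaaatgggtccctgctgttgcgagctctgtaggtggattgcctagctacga

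Of the 10 genes, 7 had an entry in that table; Nr1h4, Abcc3 and Fgf15 had none. An FXR element was searched as AGGTCA, any base and TGACCT with at most 2 mismatches, a site of hepatocyte nuclear factor 1 (HNF1) as GTTAAT, any base and ATTAAC with at most 2 mismatches, and a single nuclear receptor half-site as AGGTCA without mismatch, each on both strands. The FXR form contains the half-site, so an exact match to it is also a half-site match. Of the 7 promoters, Fabp6 alone held an FXR-type match, at -155 to -143 from the start, and 1.24% of all 33469 promoters held one. HNF1-type matches lay at -234 to -222 in Slc10a2 and at -241 to -229 in Slc51b, against 1.09% of all promoters. Exact half-sites lay at -132 to -127 in Slc51b and at -155 to -150 and -115 to -110 in Abcc2, against 14.1% of all promoters. In these 250 bases Nr0b2, Slc51a and Gpbar1 had no match to any of the 3. These are matches of letters only, and binding was not measured.

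The measured sequences are probes of 60 bases. Those of Fabp6 and Slc51b span an intron, since the file annotation places them over 935 bases (chr10:28694853-28695787) and 1400 bases (chr8:69663157-69664556) of build rn4, so they lie across an exon junction. The Fgf15 probe (chr1:205328097-205328156, rn4) is shown because its signal was not above background on any array.

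Fabp6: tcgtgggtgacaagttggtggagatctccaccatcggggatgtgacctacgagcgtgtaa
Slc51b: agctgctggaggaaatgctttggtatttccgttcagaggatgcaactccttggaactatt
Fgf15: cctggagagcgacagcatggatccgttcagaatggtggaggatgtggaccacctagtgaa

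The share of probes well above background ran from 66.7% to 74.8% by array, and the correlation between arrays was 0.957 to 0.994. Signal is quantile-normalized and in arbitrary units, and its precision is limited by the 5 arrays of a group. The intestinal label matched the markers, since the 11 tested genes of enterocytes and epithelium summed to 438629 to 599529 units on Wistar arrays, 467030 to 603357 on sham arrays and 551336 to 589456 on RYGB arrays. Smooth muscle genes differed, with summed signals of 8 tested genes of 60003 to 92825 in Wistar, 47780 to 107911 in sham and 165031 to 211641 in RYGB rats, so that RYGB arrays lay above all others. By limma, 5 of these 8 rose between sham and RYGB rats and none fell, while 2 of 9 tested leukocyte genes fell and none rose. Their part in the results below was not tested. Of the genes that mark position along the gut, 2 of 9 proximal genes rose between sham and RYGB rats, and of 7 distal genes 1 rose (Gcg) and 1 fell (Cubn). Of 4 goblet cell genes 1 rose, of 7 hepatocyte genes 1 rose and of 5 pancreatic acinar genes 1 fell. Of the 11 enterocyte and epithelium genes 1 rose. Beside these counts, 5.19% of all tested genes were called higher and 4.49% lower in RYGB than in sham rats. Between Wistar and RYGB rats 6 of the 8 smooth muscle genes and 3 of the 4 goblet cell genes were higher in RYGB rats, 3 of the 7 distal genes and 4 of the 9 leukocyte genes were lower, and 1 proximal and 1 leukocyte gene were higher. Of the 11 enterocyte and epithelium genes 2 were higher. The 5 pancreatic acinar genes held 2 higher and 1 lower, and the 7 hepatocyte genes 1 higher and 2 lower. Of all tested genes, 12.4% were called higher and 13.8% lower in this pair. Slide and scan coincided. RYGB and sham rats shared 1 slide with 2 arrays each, sham and Wistar rats shared another with 3 and 1, and no slide held both RYGB and Wistar rats.

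Slc10a2, the apical bile acid carrier, was lowest in sham rats and highest in RYGB rats. Its normalized signal was 75.1, 146, 107, 113 and 179 on the 5 Wistar arrays. It was 22.3, 16.3, 35.8, 23.0 and 18.6 in sham rats, all below every Wistar array, and 397, 345, 221, 139.6 and 194 in RYGB rats, all above every sham array. RYGB rats thus had 10.8-fold the signal of sham rats (log2 difference 3.43 ± 0.30, SE), and sham rats had 5.32-fold less than Wistar rats (log2 difference -2.41 ± 0.30). Against Wistar rats the RYGB signal was 2.03-fold higher (1.02 ± 0.30), and these groups overlapped, because the lowest RYGB array (139.6) lay below the 2 highest Wistar arrays. On the shared slides the log2 difference was 4.16 between RYGB and sham rats and -1.67 between sham and Wistar rats. With normexp background correction, which adds an offset to all signals, the differences over all arrays were 1.70 in place of 3.43 and -1.03 in place of -2.41. In whole tissue, fewer cells that express a gene and less RNA per cell cannot be told apart.

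Fabp6, the cytosolic bile acid binding protein, was higher in RYGB rats than in both other groups. Wistar arrays gave 135, 190.5, 303, 119 and 204 units, and sham arrays gave 640.3, 146, 200.1, 193 and 191. RYGB arrays gave 1084, 621, 952, 315 and 1279, so that each exceeded every Wistar array and 3 of them exceeded every sham array. The overlap came from sham replicate 1 (640.3), because the other sham arrays were all below the lowest RYGB array. The log2 difference was 1.71 ± 0.42 (SE; 3.27-fold) against sham rats and 2.08 ± 0.42 (4.24-fold) against Wistar rats. Without sham replicate 1 the first became 2.07, and the difference between sham and Wistar rats changed from 0.37 to 0.01. Slc10a2 was not high on that array (22.3). Within the shared slides the Fabp6 differences were 2.09 for RYGB against sham and 0.98 for sham against Wistar rats; replicate 1 is on the second of these slides.

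**Figure D1:**
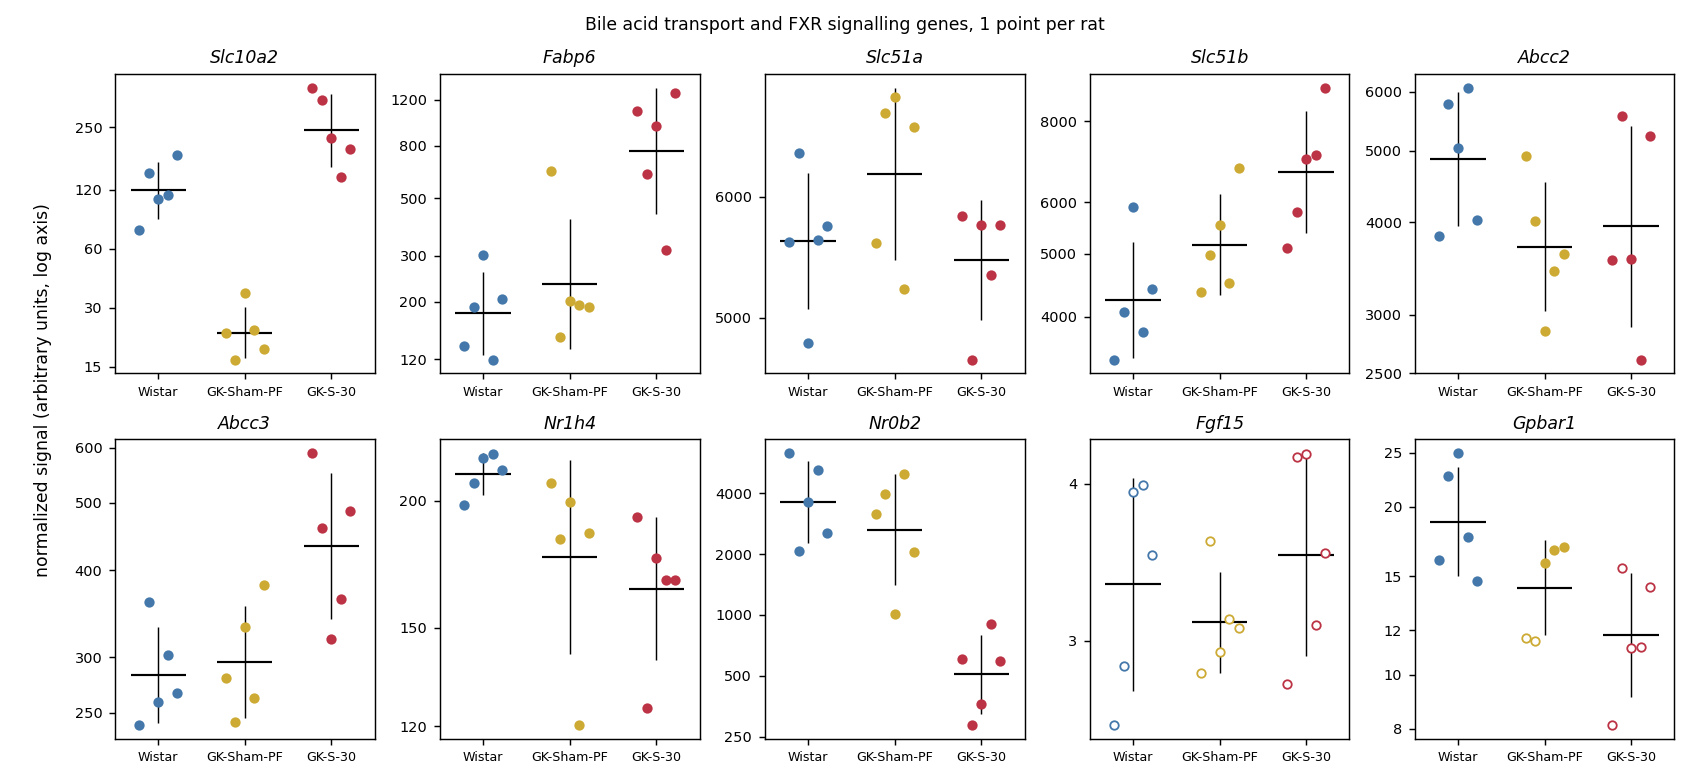
Normalized signal (arbitrary units, log axis) of the 10 genes, 1 point per rat; horizontal lines are the mean and vertical lines 1 SD of the log2 values of a group (n = 5), and open points are arrays where the probe was not well above background. Slc10a2 in GK-Sham-PF rats lies between 16.3 and 35.8, below all other arrays, Nr0b2 in GK-S-30 rats lies between 285 and 899, below all other arrays, and Fgf15 is open throughout.

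The subunits of the basolateral exporter had smaller differences than Slc10a2. Slc51a, which encodes the alpha subunit, had signals of 4810.2 to 6407 in Wistar, 5221 to 6972 in sham and 4692 to 5827 in RYGB rats, with medians of 5618, 6669.8 and 5753. The 3 ranges overlapped, and the log2 differences were -0.19, 0.15 and -0.04 (SE 0.11) for RYGB minus sham, sham minus Wistar and RYGB minus Wistar. Slc51b, the beta subunit, had 3430.2, 4062, 5904, 3784 and 4407 in Wistar, 4369, 4978, 5533, 4506 and 6787 in sham, and 5108, 5797, 6995, 7101 and 9022 in RYGB rats. Its highest array was in RYGB rats, and its 3 ranges overlapped in turn. Its log2 difference was 0.65 ± 0.17 (1.57-fold) between RYGB and Wistar rats and 0.37 ± 0.17 between RYGB and sham rats. The second value was -0.02 on the slide that holds 2 arrays of each group.

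Abcc3, a pump that is placed on the blood side of enterocytes, was measured by 2 probes. The brighter gave 239.8 to 359.8 units in Wistar, 242 to 381 in sham and 319 to 589.8 in RYGB rats, and the log2 differences of RYGB rats were 0.55 ± 0.17 against sham rats and 0.62 ± 0.17 against Wistar rats. The dimmer probe gave 0.67 for both, and on it the lowest RYGB array (70.7) lay above the highest sham array (69.1). On the shared slide the brighter probe differed by 0.72 between RYGB and sham rats. Abcc2, the pump of the luminal side, ranged from 3831 to 6080.5 in Wistar, from 2851 to 4915 in sham and from 2607 to 5562 in RYGB rats. These ranges overlapped, and the log2 differences were 0.09, -0.39 and -0.30 (SE 0.21) in the order used for Slc51a.

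Nr0b2, the SHP gene, was the gene of the 10 with the lowest level after RYGB relative to both other groups. Its signal was 6333, 2076, 3609, 5243 and 2555 in Wistar rats and 3173, 3974, 1008, 5015 and 2043 in sham rats, which overlapped widely. In RYGB rats it was 608, 285, 364, 899 and 593, all below the lowest array of either other group. The log2 difference was -2.38 ± 0.43 (5.22-fold lower) against sham rats and -2.84 ± 0.43 (7.17-fold lower) against Wistar rats. It was -0.46 ± 0.43 between sham and Wistar rats. On the shared slides the differences were -2.94 for RYGB against sham and -1.44 for sham against Wistar rats.

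Nr1h4, which encodes FXR itself, had smaller differences than Nr0b2. Its signal was 198 to 222 in Wistar, 120.4 to 208 in sham and 125 to 193 in RYGB rats, with medians of 214, 186 and 167. All RYGB arrays lay below all Wistar arrays, with a log2 difference of -0.37 ± 0.14, while RYGB and sham rats overlapped (-0.10 ± 0.14). With slide as a fixed block the difference from Wistar rats was 0.05, so its direction turned. Fgf15, the gut hormone that signals from intestinal FXR to the liver, was not well above background on any of the 15 arrays, with signals of 2.57 to 4.22 units, and a difference between groups was not detectable. Gpbar1, the cell-surface receptor, was near background. It was well above background on 5 Wistar, 3 sham and 0 RYGB arrays, with signals of 14.7 to 24.9, 11.5 to 17.0 and 8.12 to 15.6. Wistar rats had at least 1.53-fold the signal of RYGB rats, taking as the RYGB level on each array the higher of its own signal and the lowest signal well above background. With normexp correction the difference was -0.08 on the log2 scale.

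In the limma fit over all genes, a gene was called if its Benjamini-Hochberg adjusted p was under 0.05. Of the 9 tested genes, 2 were called higher (Slc10a2 and Fabp6) and 1 lower (Nr0b2) in RYGB than in sham rats, beside 5.19% of all genes called higher and 4.49% called lower. The arrays of 2 of them (Slc10a2 and Nr0b2) did not overlap, beside 9.02% of all genes. In sham against Wistar rats 0 were called higher and 1 lower (Slc10a2), beside 4.21% and 4.66%, and 1 did not overlap, beside 9.69%. In RYGB against Wistar rats 4 were called higher (Slc10a2, Fabp6, Slc51b and Abcc3) and 2 lower (Nr0b2 and Gpbar1), beside 12.4% and 13.8%, and 3 did not overlap, beside 19.5%. Gpbar1 entered the test only through Wistar rats, the group where it was high. With only probes well above background on all arrays, 5 genes were called in this pair. With slide as a fixed block 2, 0 and 1 of the 9 genes were called in the 3 pairs. Since the genes were selected on these comparisons, nothing is read from these counts. The median log2 difference of the 9 genes was 0.09, -0.27 and -0.04 in the same order, and that of all tested genes was -0.03, 0.01 and -0.02. The pairs share groups, so their values are not independent of each other.

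**Figure D2:**
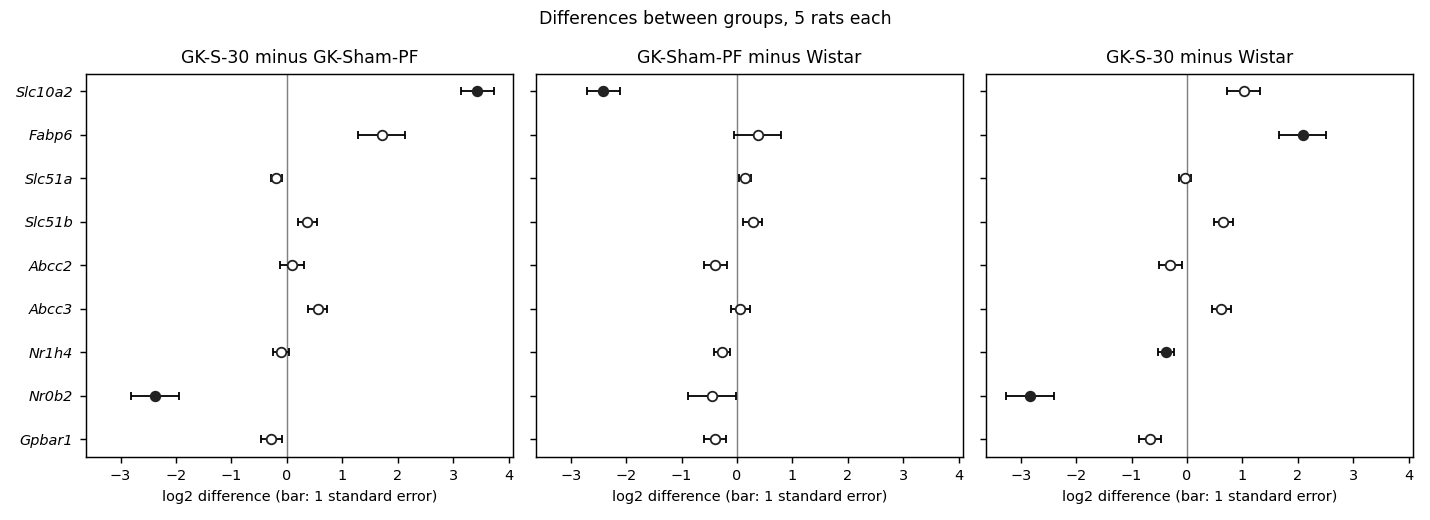
Log2 difference of normalized signal for the 9 tested genes in the 3 pairs of groups (5 rats each), with bars of 1 standard error from the limma fit; filled points are genes whose arrays did not overlap between the groups. Slc10a2 (3.43) and Nr0b2 (-2.38) stand at opposite ends for GK-S-30 minus GK-Sham-PF, and most other genes lie within 1 of 0.

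Within RYGB rats the arrays did not rank alike for these genes. Replicate 4 had the lowest Slc10a2 (139.6) and Fabp6 (315) and the highest Nr0b2 (899) of its group, whereas replicate 5 had the highest Fabp6 (1279) and Slc51b (9022) with a middle Nr0b2 (593). The closeness of patterns was measured as the root mean square difference of mean-centred log2 values over the 15 arrays, where Slc10a2 itself had a spread of 1.51 and Fabp6 one of 1.12. Slc10a2 and Fabp6 differed by 1.33, Fabp6 and Nr0b2 by 2.39 and Slc10a2 and Nr0b2 by 2.63, the largest of all pairs of the 9 genes. The smallest was 0.25, between Nr1h4 and Slc51a, whose own levels varied little. Outside the list, the genes closest to Slc10a2 were Sh2d7 (0.90), Sgca (0.93), Nptx2 (0.96), Ampd3 (0.97) and Slc26a1 (0.98). Those closest to Fabp6 were Rnase6 (0.61), Gsdmc (0.61), S100a6 (0.63), Dpysl4 (0.64) and Tfrc (0.64).

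Other genes of bile acid synthesis, transport and nuclear receptors were taken from 5 lists of 55 genes, of which 53 were on the array and 38 were tested. Between RYGB and sham rats 1 rose and 6 fell, between sham and Wistar rats 3 were higher and 4 lower, and between RYGB and Wistar rats 5 were higher and 10 lower. The background shares are those given above, and the lists' median log2 differences were -0.07, -0.01 and -0.22. All p-values here are adjusted over all 13050 genes and measure only the spread between the rats. The 5 lists were chosen with earlier results of these data known, so their calls are not an independent test. With slide as a fixed block, the 7 calls between RYGB and sham rats became 0, and the calls against Wistar rats that held were those of Abcb11 and Slc27a5 in both pairs.

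Of the 8 tested genes of synthesis and conjugation, 4 fell and none rose between sham and RYGB rats, beside 4.49% and 5.19% of all genes. Each of these 4 calls was lost under 2 to 15 of the alternatives. Slc27a5, the bile acid activating ligase of liver, was the most different of the 8 genes between Wistar rats and each GK group. Its signal was 445, 536, 435, 598 and 254 in Wistar rats, 19.2, 24.6, 22.2, 19.7 and 16.8 in sham rats and 8.85 to 16.5 in RYGB rats. No GK array came near a Wistar array, and just 1 of the 5 RYGB arrays was well above background. The log2 difference was -4.42 ± 0.22 for sham against Wistar rats (limma, adjusted p = 2.14e-09), and -2.30 with normexp background correction. Wistar rats had at least 33.6-fold the signal of RYGB rats (limma, adjusted p = 3.01e-10), taking for each RYGB array the higher of its own signal and the lowest signal well above background. Between the GK groups the log2 difference was -0.73 ± 0.22 (adjusted p = 0.0470), a call lost under 14 alternatives, with an adjusted p of up to 0.116 when 1 array was left out, and the arrays of the groups overlapped on a second, dimmer probe. The 7 tested hepatocyte genes summed to 906 to 1157 units in Wistar, 687 to 969 in sham and 703 to 1024 in RYGB rats. These sums came mainly from Tf and Cps1, with mean log2 levels of 8.58 and 8.64 in Wistar rats, against 4.99 for Alb. Of the 7 genes, Serpina1 was lower in sham than in Wistar rats (-0.75), Serpina1 (-1.19) and Alb (-1.56) were lower in RYGB than in Wistar rats, and Apoh was higher in both (1.27 and 2.60). Mean Apoh in Wistar rats (1.91 on the log2 scale) was below the lowest signal well above background on any Wistar array (7.08 units). Alb in RYGB rats (mean log2 3.43) was also near background, so the sizes for these 2 genes are not exact. The part of the hepatocyte genes in the Slc27a5 result was not tested.

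Slc27a2, an acyl-CoA ligase of the same family, varied more than the other named genes in Wistar rats, from 75.4 to 3754 units, against 49.9 to 135 in sham and 18.6 to 41.1 in RYGB rats. On the tested probe its RYGB level was below every array of the other groups. The log2 difference was -4.82 ± 0.88 against Wistar rats (limma, adjusted p = 0.000942), or -5.64 without Wistar replicate 3 and -4.23 without Wistar replicate 4. It was -1.64 ± 0.88 against sham rats, which was not called (adjusted p = 0.272). Sham and Wistar rats differed by -3.17 ± 0.88 with overlapping arrays (adjusted p = 0.0344), a call lost under 11 alternatives. A second probe that did not pass the filter gave -3.81 for RYGB against Wistar rats and -0.44 against sham rats. On that probe the arrays overlapped in both pairs. Amacr, a racemase of side-chain oxidation, was lower in both GK groups, with medians of 1724, 817 and 594 in Wistar, sham and RYGB rats. Its difference between RYGB and Wistar rats was -1.54 ± 0.20 (adjusted p = 4.65e-05), and that between the GK groups was -0.68 ± 0.20 with overlapping arrays (adjusted p = 0.0416, up to 0.0996 with an array left out). The call between the GK groups was lost under 15 alternatives, among them scaling to the 75th percentile and the replicate block. Ch25h, a cholesterol hydroxylase, fell by 1.47 ± 0.36 on the log2 scale between sham and RYGB rats (adjusted p = 0.0186), from 562 to 1095 units down to 200.03 to 389. Without sham replicate 2 its adjusted p was 0.0502. Cyp8b1, a hydroxylase of cholic acid synthesis, was weak at 13.4 to 29.7 units over all arrays, and it differed by -0.51 ± 0.13 between the GK groups (adjusted p = 0.0239, up to 0.0617 with an array left out) and by -0.67 ± 0.13 from Wistar rats (adjusted p = 0.00161). With normexp background correction the second difference was -0.13 and was not called (adjusted p = 0.0655). Cyp7b1, an oxysterol hydroxylase, was well above background on 2 Wistar, 4 sham and 5 RYGB arrays, and so entered the test only through the group where it was high. On this probe RYGB rats had at least 2.03-fold the Wistar signal by the same bound, while a second probe that did not pass the filter differed by -0.18 on the log2 scale, the other way. Cyp7a1, the rate-limiting enzyme of synthesis in liver, was well above background on 1 of the 15 arrays.

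Of 8 tested transporters, Abcb11, the bile salt export pump of liver, differed most. Its signal was 7.90 to 20.6 in Wistar rats, 152, 168, 178, 185 and 217 in sham rats and 93.0, 103, 110.4, 107 and 115 in RYGB rats. No group overlapped another. The probe was well above background on 4 of the 5 Wistar arrays and on all GK arrays. Abcb11 thus entered the test only through the GK groups, where it was high, and its fold against Wistar rats is not exact. As measured, Abcb11 was 13.8-fold higher in sham than in Wistar rats (log2 difference 3.78 ± 0.19, limma, adjusted p = 2.14e-09, or 1.54 with normexp background correction). It was lower in RYGB than in sham rats (log2 difference -0.76 ± 0.19, adjusted p = 0.0192). With slide as a fixed block these were 3.78 (adjusted p = 0.000113) and -1.04 (adjusted p = 0.110), the largest adjusted p of each over the alternatives run. Abcb4, a phospholipid transporter, was higher in RYGB than in Wistar rats (1.12 ± 0.18, adjusted p = 0.000282), at 28.8 to 54.2 against 15.5 to 20.5 units. The signal was weak, and this difference was 0.32 at its lowest over the alternatives. Sham rats were also above Wistar rats (0.64 ± 0.18, adjusted p = 0.0336), a call lost under 11 alternatives. RYGB and sham rats differed by 0.48 ± 0.18, which was not called (adjusted p = 0.104).

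Of 6 tested other FXR targets, Il18, a cytokine gene, was higher in each step. Its signal was 1419 to 2133 in Wistar, 2129 to 2926 in sham and 3798 to 5281 in RYGB rats. Between sham and Wistar rats the log2 difference was 0.53 ± 0.12 (limma, adjusted p = 0.0135), with overlapping arrays. With slide as a fixed block that difference was 0.27 (adjusted p = 0.909). RYGB arrays lay above all others, and the log2 differences were 0.82 ± 0.12 against sham rats (adjusted p = 0.000927) and 1.34 ± 0.12 against Wistar rats (adjusted p = 1.97e-06). Its second probe gave 0.88 and 1.32. Apoc2, an activator of lipoprotein lipase, fell by 0.65 ± 0.14 on the log2 scale between sham and RYGB rats (adjusted p = 0.00789). Its 2 probes disagreed, since the dim probe gave 0.23, and the call was lost with the mean of the probes.

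None of the 14 tested nuclear receptors and transcription factors was called between RYGB and sham rats, beside 5.19% of all genes called higher and 4.49% lower. Of genes chosen after their values were seen, Rxra, the partner of FXR, differed by 0.20 ± 0.12 (adjusted p = 0.328), and Hnf4a, a hepatocyte nuclear factor, by 0.41 ± 0.18 (adjusted p = 0.181), although the arrays of its groups did not overlap. Against Wistar rats 4 of the 14 were lower in RYGB rats and none higher, beside 13.8% and 12.4% of all genes. Among the 4 were Nr1i3, a xenobiotic receptor, at -0.78 ± 0.18 (limma, adjusted p = 0.00533) and Ppara at -0.77 ± 0.19 (adjusted p = 0.00811). Nr1i3 was also lower in sham than in Wistar rats, by the same size (-0.78 ± 0.18, adjusted p = 0.0122). Fgfr4, a receptor of FGF15, and Mamdc4, which acts in enterocytes on FGF15 production, were tested and were not called in any pair.

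**Figure D3:**
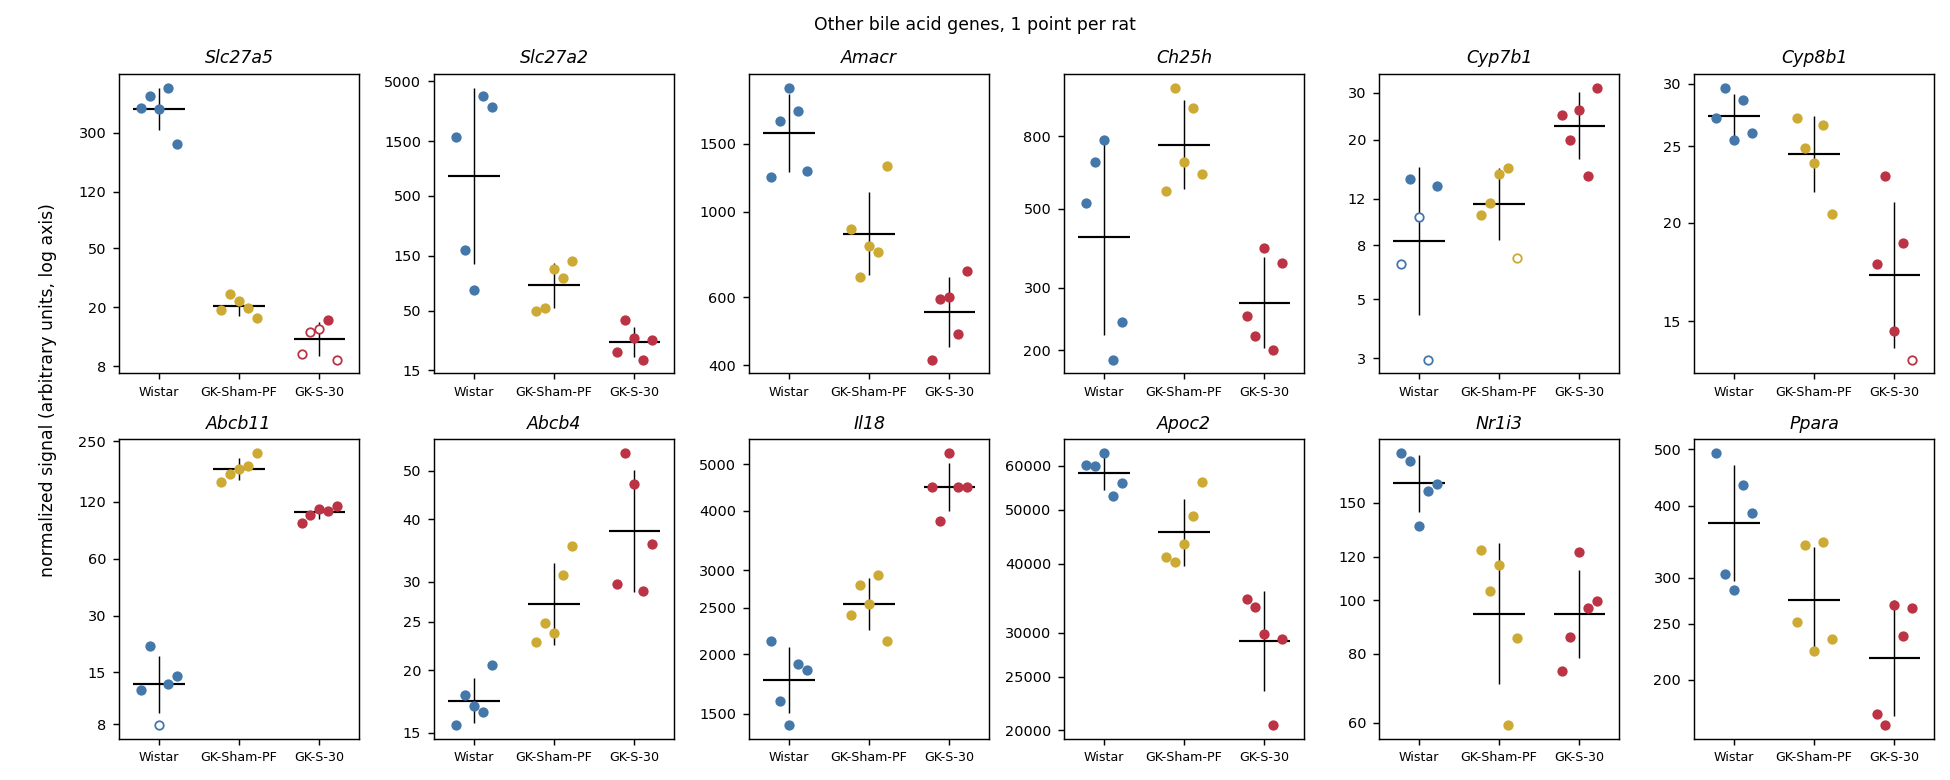
Normalized signal (arbitrary units, log axis) of 12 other bile acid genes, 1 point per rat, with mean and 1 SD of the log2 values of each group (n = 5) and open points where the probe was not well above background. Slc27a5 separates Wistar rats (254 to 598) from both GK groups (at most 24.6), and Abcb11 separates them the other way.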

How the data were processed

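Total RNA of 15 male rats, 5 per group, was labelled with Cy3 and hybridized to 1-colour Agilent rat arrays, 1 array per rat. The authors deposited scanner files with processed signal intensity, background-subtracted by Agilent Feature Extraction 10.7 per the labels, and a matrix of quantile-normalized log2 values, used here as an alternative. Groups came from the sample labels. Intensities were put on the log2 scale and quantile-normalized, control and outlier spots were left out, and spots of a probe were averaged. Probes entered the test when all 5 arrays of at least 1 group were flagged well above background (17069 probes), and the brightest such probe stood for a gene (13050 genes). The 3 pairs of groups were compared with limma 3.58.1 in R 4.3.3 over all 15 arrays with Benjamini-Hochberg adjustment at 0.05, and the fitting script was also run on simulated data with known changes. The study's methods used one-way ANOVA with Tukey correction, run as an alternative. The other alternatives were scaling to the 75th percentile, normexp background correction with offset 50, other probe filters, the mean of probes, the deposited log2 matrix, slide as a fixed or random block, a replicate block, 2-group fits and leaving out each array. Precision is limited by the number of arrays, whose labels do not say more of the rats' origin, so p-values measure the spread between these rats.

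The 10 genes and all other lists were chosen with earlier results of these data known. Slc51a and Slc51b are Ostalpha and Ostbeta in the files, and Fgf15 is Fgf19 in RefSeq's table. Of the 5 other bile acid lists, the text names genes called in a pair without overlap of arrays, at most 12 by size of difference, and the members of lists with 5 or fewer measured genes. For likeness it names the 5 genes with the smallest root mean square difference from Slc10a2 and from Fabp6. Probe positions are those of the file annotation (rn4), and promoters those of RefSeq (GRCr8).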

Additional observations from a re-analysis of the deposited data

Results flagged for a closer look

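In 63 sets of 5 arrays, 1 array was compared with the spread of the others by the gap to its nearest neighbour over the range of the group, with a critical value of 0.71, which chance exceeds in about 1 in 20 groups. GK-Sham-PF replicate 1 stood apart as the highest Fabp6 array of its group (640.3 units, gap over range 0.786). GK-Sham-PF replicate 4 stood apart as the lowest Nr1h4 array of its group (120.4 units, gap over range 0.769). These were the only 2 of the 63 sets flagged, no more than that rate would give.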

How the results depend on the processing

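For the 9 tested genes and the 12 other bile acid genes named, none of the 35 called differences changed sign under an alternative, and 9 of the 28 uncalled did in at least 1, among them Slc51b (-0.02 with slide as a fixed block) and Gpbar1 (0.02 with normexp) in RYGB against sham rats. Of the values of the 9 genes, 657 stayed within 1 SD and 15 moved further, and of those of the 12 genes 805 stayed on their side of the threshold, 79 lost and 4 gained a call. The other tested bile acid genes were counted but not followed singly. In the order GK-S-30 minus GK-Sham-PF, GK-Sham-PF minus Wistar and GK-S-30 minus Wistar, slide as a fixed block called 292, 181 and 248 genes in place of 1263, 1158 and 3425, 0, 2 and 2 other bile acid genes in place of 7, 7 and 15, and 0 and 1 of the 10 genes in the last 2 pairs in place of 1 and 6. It compares mainly arrays that share a slide, and few do. The ANOVA with Tukey correction called 2127 and 1920 genes in the first 2 pairs at the methods' unadjusted threshold, and after Benjamini-Hochberg 509 and 717 genes, 2 and 2 other bile acid genes, and 2 of the 10 genes in the last pair. With probes well above background on all arrays, 4 other bile acid genes were called in the first pair. Leaving out 1 array gave 871 to 1514, 870 to 1222 and 2835 to 3711 genes, 2 to 4, 1 to 1 and 5 to 7 of the 10 genes, and 4 to 7, 5 to 8 and 15 to 18 other bile acid genes, with 4 in the first pair without GK-Sham-PF replicate 1, 2 or 4. Causes were not tested. Replicate numbers do not pair the rats (correlation of same-numbered deviations -0.275 to 0.181), and with the replicate block 3, 1 and 6 of the 10 genes and 6, 6 and 15 other bile acid genes were called. Signal near background limits Gpbar1 and Fgf15.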
